A study of Mus musculus with 48 samples.

Results

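Whole striatal RNA was compared between R6/2 mice that carried hM4Di and R6/2 mice that carried a control cargo. R6/2 mice express a fragment of mutant human huntingtin and serve as a model of Huntington's disease. The comparison was made of the input libraries, meaning RNA of the cleared striatal lysate before any precipitation, and it held 8 of the 48 libraries of the series: 4 labelled hM4Di and 4 labelled control cargo. All 8 came from mice of the strain labelled C57, and every replicate also carried the RiboTag virus, which delivers HA-tagged Rpl22 to striatal astrocytes and was given 3 weeks before RNA was taken. From the same mice, RNA precipitated through the HA tag gave the IP libraries, which stand for RNA on astrocyte ribosomes. The tissue label reads striatal astrocytes on the input libraries too, although input RNA comes from all cells of the lysate. The series describes its mice as adult and gives no age in weeks. No label names a ligand for hM4Di, the promoter that drove it, or the nature of the control cargo, so whether the receptor had been activated is not known.

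hM4Di is a designer receptor made from the human M4 muscarinic acetylcholine receptor. It has lost its response to acetylcholine and couples, once a synthetic ligand binds, to Gi proteins, which lower cyclic AMP and, through their beta-gamma subunits, act on ion channels and phospholipase C. In astrocytes Gi-coupled receptors are known to raise intracellular calcium, and in the striatum GABA release from medium spiny neurons activates the Gi-coupled GABA-B receptors of astrocytes. Most neurons of the striatum are medium spiny neurons, and their transcripts are lowered in Huntington's disease and in R6/2 mice. An input library mixes all of these cells, so that a change in 1 cell type is diluted, and fewer cells of a type cannot be told apart from less RNA per cell.

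The 8 libraries held 21901847 to 28012028 counted reads, and 15168 of 24060 genes in the table passed the filter on low counts. No 2 libraries of a group agreed within sampling noise (chi-square per degree of freedom 4.73 to 11.8). On the first principal component, which held 28.1% of the variance, hM4Di replicates 3 (34.6) and 2 (16.4) stood apart from the other 6 libraries (-17.3 to -4.26). Medians of gene lists that rest on these replicates are given with and without them. The labels do not say that replicates were separate litters or days, so p-values measure the spread between these mice. Levels are given in CPM, counts scaled to the library size after TMM correction. Tests are edgeR's quasi-likelihood test, with p adjusted by Benjamini-Hochberg over the 15168 genes.

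The whole-tissue difference was small in number of genes. Below, called means called by edgeR unless DESeq2 is named. At an adjusted p under 0.05, 3 genes were called, 0.0198% of those tested, and all of them were higher with hM4Di: Chrm4, Gem and Cyr61. None was called lower by edgeR, and DESeq2 called 53 genes, 43 higher and 10 lower, with all 3 among them. At an unadjusted p under 0.05 stood 755 genes higher (4.98%) and 408 lower (2.69%), 1163 in all (7.67%), where chance gives about 758. That total was 906 without hM4Di replicate 3 and 989 without hM4Di replicates 2 and 3. It was 946 without control replicate 3 and 1309 without control replicate 4. The median absolute log2 fold change over all genes was 0.06 and the median standard error 0.08, and 49.6% of genes lay above 0. Among the 146 genes (0.963%) that differed by over 1 on the log2 scale, 133 were higher and 13 lower. The 100 smallest p belonged to 85 higher and 15 lower genes. Over all 8 libraries the tail of large differences was therefore mostly on the side of higher levels with hM4Di, while the bulk of genes was centred on 0. The direction at an unadjusted p under 0.05 (edgeR) differed by level. At an average log2 CPM of 0 to 2, 191 genes were higher and 26 lower. Over 6, 82 were higher and 162 lower, and 4 genes there lay above 1 and 0 below -1. The direction of the tail was not counted without hM4Di replicates 2 and 3.

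Chrm4, which encodes the mouse M4 muscarinic receptor, rose most clearly. It stood at 54.2, 46.5, 49.0 and 67.2 CPM in control replicates 1 to 4, and at 484, 359, 556 and 511 CPM in hM4Di replicates 1 to 4. The lowest hM4Di library was far above the highest control library, so the level of Chrm4 went with the label in 8 of 8 libraries. The log2 fold change was 3.14 ± 0.149 (SE, n = 4 per group, edgeR adjusted p = 1.2e-05), from a mean of 54.2 ± 9.22 to 478 ± 84.3 CPM (SD). The gene lies on chromosome 2 from 91927249 to 91928688 on the plus strand (GENCODE M21, GRCm38). Reads of the human-derived receptor that were assigned to mouse Chrm4 cannot be told apart from reads of the mouse gene in a table of counts per gene. Among the 5 muscarinic receptor genes Chrm4 was the single one called. Chrm1, which encodes the Gq-coupled M1 receptor, was at 118 to 142 CPM in controls and 117 to 123 CPM with hM4Di, so its groups overlapped.

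Per unit of gene length, Chrm4 was close to Chrm1 in controls and far above it with hM4Di. Deposited FPKM (reads scaled to gene length and library size) of Chrm4 were 17.0 to 23.8 in controls and 129.5 to 202 with hM4Di, against 19.0 to 22.1 and 18.6 to 19.6 for Chrm1. The other members lay lower with hM4Di without passing: Chrm1 at -0.11 ± 0.0523, the presynaptic receptor Chrm2 at -0.25 ± 0.0953 and the rare Chrm5 at -0.52 ± 0.281 (log2 ± SE, edgeR adjusted p = 0.681, 0.585 and 0.719).

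Gem encodes a small GTP-binding protein that inhibits voltage-gated calcium channels. It stood at 1.17, 1.72, 1.497 and 1.35 CPM in the controls and at 7.77, 7.56, 13.5 and 9.46 CPM in the hM4Di replicates. No hM4Di library came near the controls, and replicate 3 was the highest. The log2 fold change was 2.74 ± 0.216 (edgeR adjusted p = 0.000945), from reads of 30 to 42 in the control libraries to 184 to 375. Gem lies on chromosome 4 from 11704457 to 11714752.

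Cyr61, now named Ccn1, encodes a secreted protein of the extracellular matrix that signals through integrins and is itself an early response gene. Its control libraries were at 2.61, 3.25, 3.89 and 3.23 CPM and its hM4Di libraries at 15.1, 17.3, 18.6 and 9.20 CPM. The groups did not overlap, with hM4Di replicate 4 the lowest of its group. The log2 fold change was 2.21 ± 0.215 (edgeR adjusted p = 0.00466), and it was 2.18 with an adjusted p of 0.0787 by limma-voom, where the call was lost. The gene lies on chromosome 3 from 145646976 to 145649981 on the minus strand. Both Gem and Cyr61 were called in every other alternative tried, also without hM4Di replicates 2 and 3 together.

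**Figure D1:**
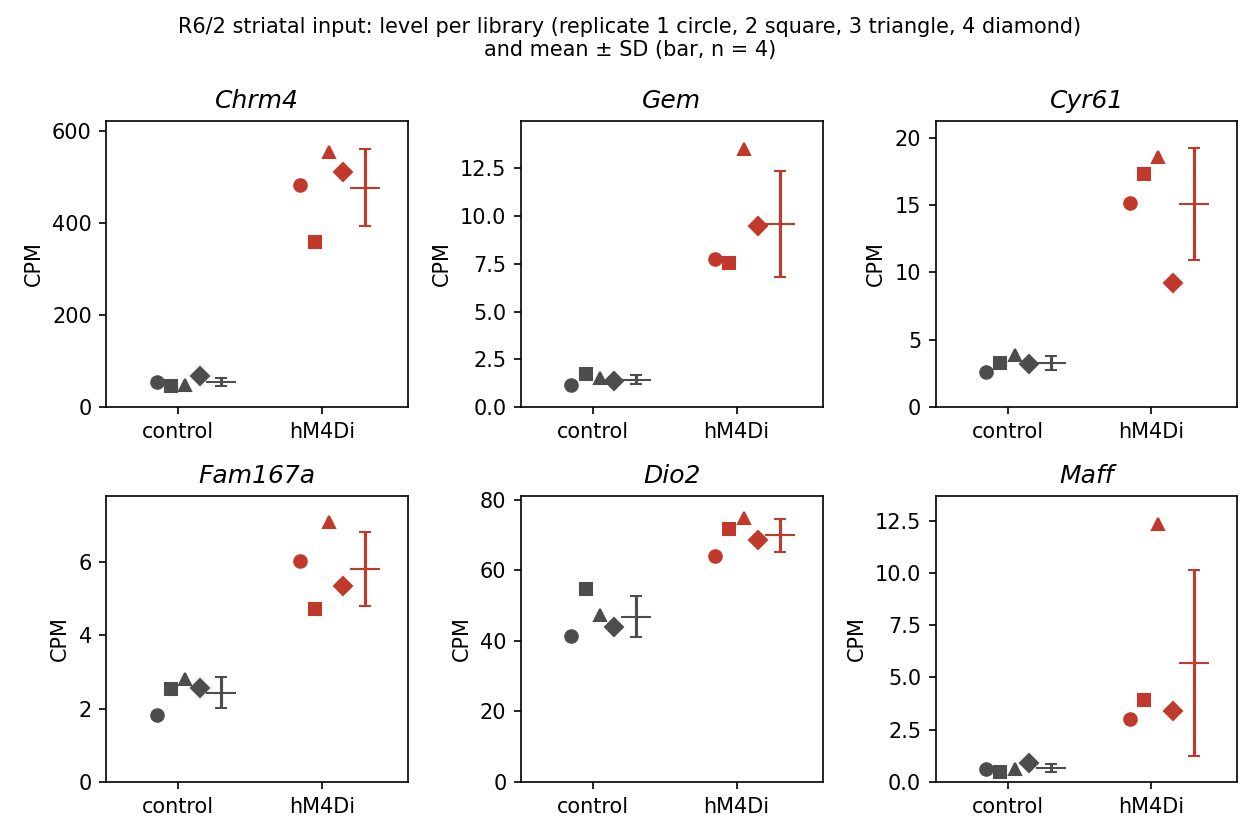
Level of 6 genes in each input library (vertical axis, CPM from 0), control in grey and hM4Di in red, with the marker shape giving the replicate and the bar the mean ± SD of 4. Every hM4Di library lies above every control library in each panel. Chrm4, Gem and Cyr61 passed the test and Fam167a, Dio2 and Maff did not, and for Maff replicate 3 (12.3 CPM) lies far above the other 3 (3.03 to 3.94).

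Promoters were read for the genes with the smallest p, because cyclic AMP, calcium and serum act on known short DNA elements there. The 250 bases before the RefSeq start (GRCm38.p6) were searched on both strands for the cyclic AMP response element TGACGTCA, the AP-1 element TGANTCA and the serum response element. The table held promoters for 2 of the 3 called genes and for 11857 of the genes tested, of which 2.99% held TGACGTCA, 5.45% TGANTCA and 1.41% the serum response element. The promoter of Cyr61, on chr3:145649986-145650235, minus strand, held none of these letters, and neither did that of Chrm4. Of the 15 higher genes with the smallest p, 12 had a promoter in the table, and TGACGTCA stood in those of Maff (chr15:79347270-79347519, plus strand, 1 of its 3 starts) and Dio2 (chr12:90739039-90739288, minus strand). TGANTCA stood in 1 of the 12, that of Lif, and the serum response element in 0. Of the 15 lower genes with the smallest p, 13 had a promoter in the table, and TGANTCA stood in 3 (23.1%; Aldh1a1, Gstm5 and Rpl22) and the other elements in 0. The match (capitals) begins 29 bases before the start in Maff and 95 in Dio2. A match is a description of letters and shows no binding. The 3 promoters are printed 5′ to 3′ on the strand of the gene:
Cyr61: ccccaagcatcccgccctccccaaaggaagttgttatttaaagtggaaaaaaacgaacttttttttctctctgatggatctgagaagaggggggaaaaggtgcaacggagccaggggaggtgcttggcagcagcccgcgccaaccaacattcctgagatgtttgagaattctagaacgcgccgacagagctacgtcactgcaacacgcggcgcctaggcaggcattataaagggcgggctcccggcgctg
Maff: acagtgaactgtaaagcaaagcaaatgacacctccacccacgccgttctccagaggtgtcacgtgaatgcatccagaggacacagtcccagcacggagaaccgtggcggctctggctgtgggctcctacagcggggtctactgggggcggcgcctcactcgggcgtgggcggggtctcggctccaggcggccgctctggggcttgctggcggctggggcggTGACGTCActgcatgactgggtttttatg
Dio2: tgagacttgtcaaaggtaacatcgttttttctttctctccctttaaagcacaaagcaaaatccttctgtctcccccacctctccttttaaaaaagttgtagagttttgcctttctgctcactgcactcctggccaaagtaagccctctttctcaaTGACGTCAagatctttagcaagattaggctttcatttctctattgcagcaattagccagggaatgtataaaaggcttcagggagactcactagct

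Behind the 3 called genes came a run of genes that missed the threshold with groups that did not overlap. Such separation upwards was seen in 2.68% of all genes tested, but choosing genes by smallest p in the same libraries favours it. Fam167a was at 1.83, 2.53, 2.82 and 2.56 CPM in controls and 6.03, 4.72, 7.10 and 5.36 CPM with hM4Di (log2 1.25 ± 0.171, edgeR adjusted p = 0.079). Dio2, the deiodinase with which astrocytes make active thyroid hormone, was at 41.3, 54.7, 47.5 and 44.1 against 64.2, 71.8, 74.9 and 68.8 CPM (0.58 ± 0.0827, edgeR adjusted p = 0.0977). Both were called by DESeq2 and in the fit over all 24 input libraries of the series.

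Several of these were secreted or nuclear signals at low levels. Lif, a cytokine of the interleukin 6 family, was at 0.507 to 0.988 CPM in controls and 1.59 to 3.14 CPM with hM4Di (1.72 ± 0.268, edgeR adjusted p = 0.152). Maff, a small Maf transcription factor, was at 0.452 to 0.898 against 3.03, 3.94, 12.3 and 3.41 CPM (3.12 ± 0.504, edgeR adjusted p = 0.152). Without hM4Di replicate 3 the Maff value was 2.39 and passed (edgeR adjusted p = 0.00648). C1ra, a protease that starts the classical complement cascade, was at 0.271 to 0.392 against 0.834 to 2.05 CPM (2.05 ± 0.33). Cnn1, calponin of the actin cytoskeleton, was at 0 to 0.181 CPM in controls and 0.758, 0.78, 1.95 and 0.993 CPM with hM4Di, and its log2 value of 3.71 rests on very few control reads.

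Others of the 15 were abundant and differed by less. The scaffold protein gene Ahnak was at 50.7 to 56.3 against 66.2 to 92.6 CPM (0.53 ± 0.089), and the intermediate filament gene Vim at 32.4 to 40.9 against 48.3 to 68.8 CPM (0.62 ± 0.11). The integrin subunit gene Itgb5 was at 43.2 to 48.7 against 53.9 to 56.7 CPM (0.27 ± 0.0472), a small difference with a narrow spread. Zfp36l2, whose protein speeds the decay of AU-rich messenger RNAs, the mitochondrial carrier gene Ucp2 and Klhl1 were at 0.43, 0.50 and 0.42. The edgeR adjusted p of these 12 genes ran from 0.079 to 0.172, and DESeq2 called all 12.

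**Figure D2:**
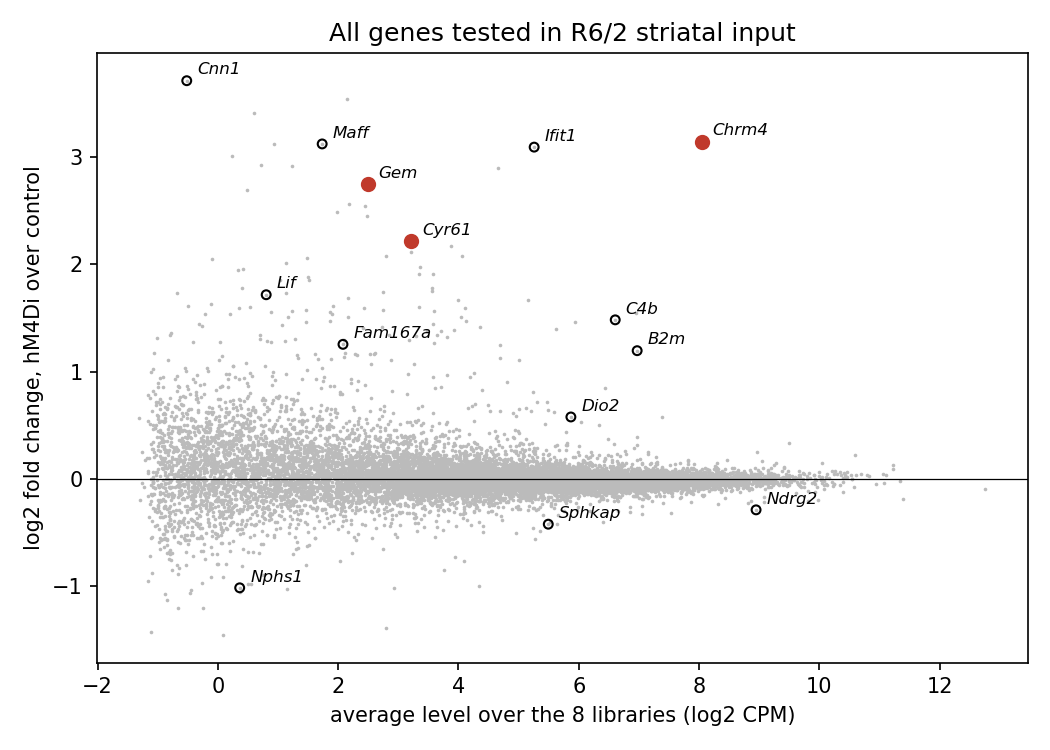
Log2 fold change of hM4Di over control (vertical) against the average level over the 8 libraries (horizontal, log2 CPM) for the 15168 genes tested. Filled red points are the 3 called genes, open circles are named genes that did not pass, and grey points are all others. Large differences lie mostly above 0 (133 of 146 past 1).

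Lower levels with hM4Di were less marked, and 13 genes lay below -1 on the log2 scale. The 15 lower genes with the smallest p had edgeR adjusted p from 0.165 to 0.422, and 14 of them had groups that did not overlap. Separation downwards was seen in 1.89% of all genes, but choosing genes by smallest p in the same libraries favours it. Gstm5, a glutathione transferase gene, was at 106, 111, 109 and 107 CPM in controls and 96.9, 90.1, 95.2 and 92.9 CPM with hM4Di (-0.21 ± 0.0352). Ndrg2, a gene abundant in astrocytes, was at 511 to 587 against 428 to 462 CPM (-0.29 ± 0.0497). Sphkap, whose protein anchors protein kinase A, was at 48.9, 47.6, 53.9 and 55.7 against 36.6, 37.5, 43.8 and 35.9 CPM (-0.42 ± 0.0752, edgeR adjusted p = 0.172). In these 3 genes every hM4Di library was below every control library by a modest margin.

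Sparcl1 encodes hevin, a secreted astrocyte protein that promotes excitatory synapses, and was at 1005 to 1129 CPM against 921 to 983 CPM (-0.20 ± 0.042). Crebrf, a regulator of the CREB3 transcription factor, was at 249 to 252 against 222 to 230 CPM, a difference of only -0.14 but with a standard error of 0.0279. Nphs1, which encodes nephrin, had the largest difference of the 15 at -1.01 ± 0.225, from 1.29 to 2.08 CPM down to 0.682 to 1.01 CPM. The mitochondrial creatine kinase gene Ckmt1 was at -0.18, the retinaldehyde dehydrogenase gene Aldh1a1 at -0.35, the metalloproteinase inhibitor gene Timp4 at -0.31 and the sodium-calcium exchanger gene Slc24a3 at -0.19. The remaining values were -0.22 for Nrip3, -0.52 for the Ras-like gene Rasl11b, -0.25 for Fam81a and -0.29 for Olfml1. DESeq2 called 10 genes lower, all of them among these 15.

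Rpl22, the gene of the tagged ribosomal protein, was at 132, 108, 127 and 141 CPM in controls and 100.4, 94.9, 110 and 106 CPM with hM4Di. Control replicate 2 lay below hM4Di replicate 3, so the groups overlapped. The value was -0.30 ± 0.0753, which did not pass by edgeR (adjusted p = 0.422) but was called lower by DESeq2. Reads of the viral tagged copy and of the mouse gene cannot be told apart here. The 24 other cytosolic ribosomal protein genes listed had a median of 0.01, with 14 higher and 10 lower.

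Genes of Gi and cyclic AMP signalling showed no shared shift. Of 35 listed genes (G protein subunits, adenylyl cyclases, phosphodiesterases, kinase subunits and GIRK channels), 16 were higher and 19 lower, with a median of -0.01, 0 called and 2 at an unadjusted p under 0.05. Pde2a, a cyclic GMP-stimulated phosphodiesterase, was at 468 to 548 CPM in controls and 546 to 581 CPM with hM4Di (0.16 ± 0.0484), and Pde4b, which breaks down cyclic AMP, was at 0.10 ± 0.0428. Neither passed (edgeR adjusted p = 0.484 and 0.622), and both sets of libraries overlapped.

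Interferon response genes were higher as a group, but unevenly across mice. Type I interferons act through STAT proteins on genes that block viral replication, and the list of 22 such genes had all 22 tested members above 0, a median of 1.63 against 0.00 over all genes, 0 called and 20 at an unadjusted p under 0.05. Median deviations of the list from the control mean were 0.13, 1.52, 2.85 and 0.30 on the log2 scale in hM4Di replicates 1 to 4, and 0.18, -0.15, 0.34 and -0.39 in control replicates 1 to 4. hM4Di replicates 2 and 3 were far above all controls, while replicates 1 and 4 lay within the range of the controls. Replicate 3 had the highest level of the 8 libraries in 22 of 22 genes, and in 15 of them replicates 2 and 3 alone exceeded every control. Without replicate 3 the list median was 0.71, and without replicates 2 and 3 it was 0.18.

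Single genes showed the same unevenness. Oasl2, of the oligoadenylate synthetase family, was at 7.14, 5.74, 7.42 and 3.28 CPM in controls and 8.91, 39.1, 118.5 and 9.29 CPM with hM4Di (log2 2.89 ± 0.781). Ifit1, which binds foreign RNA, was at 8.90, 6.55, 11.1 and 5.17 against 10.5, 54.1, 197 and 10.7 CPM (3.09 ± 0.876). Ifit3 was at 20.0, 13.1, 22.6 and 12.1 against 21.6, 51.9, 119 and 22.98 CPM (1.67 ± 0.505). For Ifit1 hM4Di replicates 1 and 4 lay below the highest control, for Ifit3 replicate 1 did and replicate 4 was barely above it, and none of the 3 passed (edgeR adjusted p = 0.449, 0.461 and 0.484). Bst2, or tetherin, which holds budding virus at the cell surface, was at 0.988 to 2.92 against 3.19, 4.03, 25.8 and 3.15 CPM (2.45 ± 0.741, edgeR adjusted p = 0.484).

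Antigen presentation and complement genes were also higher, and here all 4 hM4Di replicates contributed. The list holds MHC class I genes, which display peptides on the cell surface, the proteasome subunits and transporters that supply them, and the early complement components. All 16 members tested were above 0, with a median of 1.30. Of these, 16 were at an unadjusted p under 0.05 and 10 had groups that did not overlap, against 4.98% and 2.68% of all genes upwards. By edgeR 0 were called and by DESeq2 1, Psmb9. Median deviations were 0.68, 1.46, 2.05 and 0.35 in hM4Di replicates 1 to 4 and -0.04, 0.00, 0.17 and -0.17 in the controls. In 11 of the 16 genes replicates 1 and 4 both exceeded every control. Without replicate 3 the median was 0.82, and without replicates 2 and 3 it was 0.53.

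B2m, the invariant chain of MHC class I, was at 70.0, 84.9, 90.9 and 59.2 CPM in controls and 120.0, 186, 290.3 and 101 CPM with hM4Di (1.19 ± 0.291, edgeR adjusted p = 0.422). C4b, complement component 4, was at 46.3 to 56.9 against 95.9, 160, 255 and 61.4 CPM (1.48 ± 0.353, edgeR adjusted p = 0.394). Psmb9 and Psmb8, subunits of the immunoproteasome, were at 1.57 ± 0.394 and 1.57 ± 0.421 (edgeR adjusted p = 0.422 and 0.449). In each of these 4 genes, named for their small p, the lowest hM4Di library exceeded the highest control, as in 2.68% of all genes. Serping1, which encodes the inhibitor of the C1 complex, was at 2.16 to 2.97 against 3.46 to 9.81 CPM (1.17 ± 0.321).

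The 250-base promoters of these lists were searched, by a choice made after the values were seen, for GAAANNGAAA, the core of the interferon-stimulated response element, on both strands. It stood in 3.1% of the promoters of all genes tested, in 7 of the 16 interferon response genes with a promoter in the table and in 1 of the 10 of the antigen presentation and complement list. Among 19 promoters of immediate early genes it stood in 4. Ifit1 (chr19:34640639-34640888, plus strand) and Ifit3 (chr19:34583279-34583528, plus strand) each held 2 matches on the opposite strand, which begin 104 and 85 bases before the start in Ifit1 and 156 and 122 in Ifit3. B2m (chr2:122147437-122147686, plus strand) held 1, which begins 139 bases before the start. The sequences show the elements (capitals) of genes that stood highest in hM4Di replicates 2 and 3, from RefSeq (GRCm38.p6), 5′ to 3′:
Ifit1: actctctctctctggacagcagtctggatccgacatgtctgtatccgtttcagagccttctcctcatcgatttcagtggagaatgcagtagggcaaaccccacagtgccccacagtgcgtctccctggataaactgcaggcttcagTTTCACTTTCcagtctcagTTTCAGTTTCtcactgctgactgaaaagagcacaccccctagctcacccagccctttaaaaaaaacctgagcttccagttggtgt
Ifit3: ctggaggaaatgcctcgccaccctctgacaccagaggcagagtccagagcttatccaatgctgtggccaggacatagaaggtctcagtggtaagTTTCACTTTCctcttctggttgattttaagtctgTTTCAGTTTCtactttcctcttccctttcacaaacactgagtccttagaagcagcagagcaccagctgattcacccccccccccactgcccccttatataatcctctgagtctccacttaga
B2m: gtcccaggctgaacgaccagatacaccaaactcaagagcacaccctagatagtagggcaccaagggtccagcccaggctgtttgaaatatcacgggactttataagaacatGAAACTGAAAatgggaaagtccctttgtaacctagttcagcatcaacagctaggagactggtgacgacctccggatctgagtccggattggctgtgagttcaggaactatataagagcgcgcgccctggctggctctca

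Reactive astrocyte genes were highest in hM4Di replicate 3 as well. Of the pan-reactive list, genes that astrocytes raise after many injuries, 10 of 13 passed the filter and all of these were higher (median 0.55, 7 at an unadjusted p under 0.05, 0 called by edgeR and 1, Vim, by DESeq2). Median deviations were 0.06, 0.42, 0.85 and 0.45 in hM4Di replicates 1 to 4 and -0.09 to 0.12 in controls. Gfap, the astrocyte intermediate filament, was at 150.4, 118, 144 and 122 CPM in controls and 153, 210, 238 and 197 CPM with hM4Di (0.58 ± 0.125, edgeR adjusted p = 0.332). hM4Di replicate 1 was barely above the highest control. The protease inhibitor gene Serpina3n was at 8.63 to 14.7 against 13.8 to 20.4 CPM (0.53 ± 0.165), and the sphingosine receptor gene S1pr3 at 0.39 ± 0.127. Without hM4Di replicates 2 and 3 the list median was 0.25.

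The A1 list, described after lipopolysaccharide, had 8 of 11 tested members higher, a median of 1.17 and 0 called, and its deviations were 0.21, 1.25, 1.91 and 0.20 in hM4Di replicates 1 to 4. Several of its members are also interferon-induced, such as the immunity-related GTPase gene Iigp1, at 2.07, 4.52, 5.35 and 1.62 CPM in controls and 4.51, 16.6, 33.5 and 4.28 CPM with hM4Di (2.11 ± 0.66). Psmb8, Serping1 and H2-D1 are in both the A1 list and the antigen presentation and complement list. The A1 median was 0.61 without replicate 3 and 0.20 without replicates 2 and 3. The A2 list, described after ischaemia, had a median of 0.26 with 9 of 9 tested members higher and 0 called, and Cd109 was at 0.67 ± 0.201. Without replicate 3 that median was 0.16, and without replicates 2 and 3 it was 0.07. Of 16 cytokine and chemokine genes 8 passed the filter, all above 0 with a median of 0.20, which was 0.13 without hM4Di replicate 2 and 0.13 without replicates 2 and 3. Cxcl10, an interferon-induced chemokine, was at 0.249 to 0.542 CPM in controls and 0.303, 1.77, 8.004 and 0.475 CPM with hM4Di (2.92 ± 0.965, edgeR adjusted p = 0.506). Its log2 value was 1.26 without replicate 3 and 0.14 without replicates 2 and 3. Il1b, Il6 and Tnf were below the filter.

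**Figure D3:**
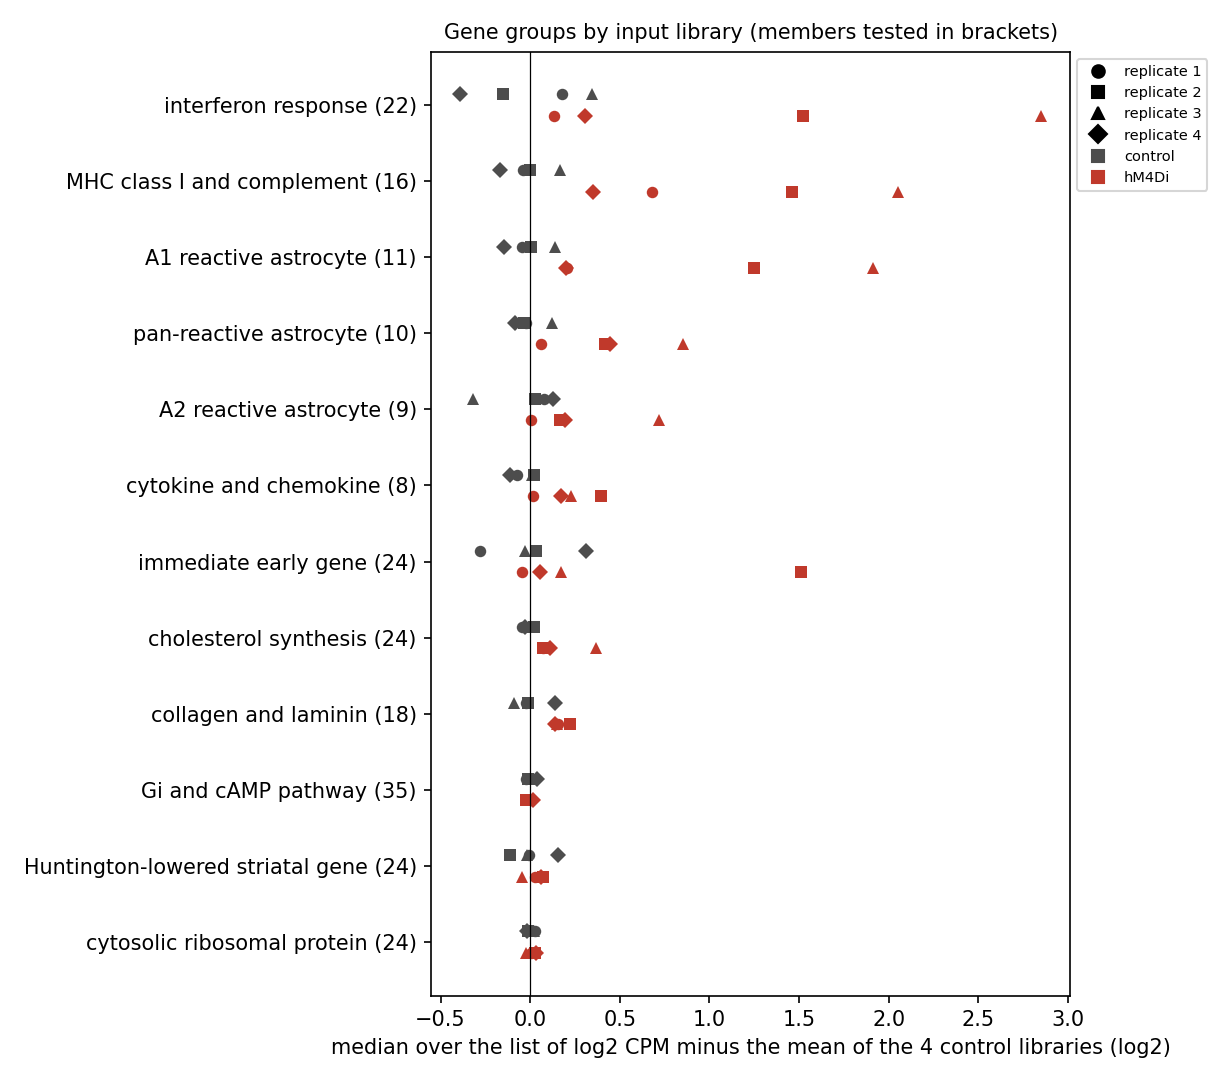
Median deviation of each gene group from the control mean (horizontal, log2) in each of the 8 input libraries, controls in grey and hM4Di in red, with marker shape giving the replicate and brackets the members tested. hM4Di replicates 2 and 3 lie far to the right for the interferon list (1.52 and 2.85), and hM4Di replicate 2 alone for the immediate early genes (1.51).

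Immediate early genes, which neuronal activity and growth signals induce within minutes, were high as a list in 1 mouse. Of 24 listed, 18 were higher (median 0.62, 6 at an unadjusted p under 0.05, 0 called by edgeR and 2, Maff and Btg2, by DESeq2), but the deviation was 1.51 in hM4Di replicate 2 and -0.04, 0.17 and 0.05 in replicates 1, 3 and 4, against -0.28 to 0.31 in controls. Without hM4Di replicate 2 the list median was -0.04. Fos stood at 9.74, 70.0, 16.4 and 11.0 CPM with hM4Di and at 3.24, 7.95, 7.24 and 7.10 CPM in controls (2.07 ± 0.619, edgeR adjusted p = 0.484). In 4 of the 24 members every hM4Di library lay above every control, as in 2.68% of all genes: Maff, Ier2, Btg2 and Fos. Btg2, which slows the cell cycle, was at 8.26 to 10.2 against 14.8, 25.4, 14.96 and 11.9 CPM (0.86 ± 0.205). Ier2 was at 0.674 to 1.08 against 1.47 to 2.46 CPM (0.99 ± 0.231). Neither passed (edgeR adjusted p = 0.394 and 0.37).

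Cholesterol synthesis genes, which sterol regulatory element-binding proteins control and which astrocytes use to supply neurons, were all slightly higher. The 24 members were all above 0 with a median of 0.13, 9 at an unadjusted p under 0.05 and 0 called. Msmo1, a sterol methyl oxidase gene, was at 41.8, 45.6, 48.9 and 41.6 CPM in controls and 50.7, 48.2, 67.8 and 55.5 CPM with hM4Di (0.32 ± 0.102, edgeR adjusted p = 0.504). Pmvk, which encodes phosphomevalonate kinase, was at 28.1, 24.5, 26.2 and 27.1 against 32.3, 28.2, 36.3 and 30.6 CPM (0.27 ± 0.0794, edgeR adjusted p = 0.484). hM4Di replicate 3 was the highest library for both, and the groups overlapped for Msmo1 and not for Pmvk. Replicate 3 was the highest library for 20 of the 24 genes, and the median without it was 0.08. Of 18 collagen and laminin genes 17 were higher (median 0.17, 6 at an unadjusted p under 0.05, 0 called), and here the 4 hM4Di replicates were close together at 0.14 to 0.22, against -0.02, -0.01, -0.09 and 0.14 in control replicates 1 to 4. Lamb2 was at 30.3 to 32.3 against 34.7 to 36.4 CPM (0.18 ± 0.0459), Col16a1 at 0.31 ± 0.0927 and the fibronectin gene Fn1 at 0.32 ± 0.103.

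Markers of the cells of the lysate were examined beside these groups. The 20 astrocyte markers were all detected. Their summed level was slightly lower with hM4Di (5850 to 6607 CPM in controls, 5418 to 5848 CPM with hM4Di), and the 2 ranges just missed each other. Of the markers, 15 of 20 lay below 0, with a median of -0.05. At an unadjusted p under 0.05 stood 5 lower and 1 higher (2.69% and 4.98% of all genes). Groups did not overlap for 3 lower and 1 higher (1.89% and 2.68% of all genes). By edgeR 0 were called and by DESeq2 1, Ndrg2. The glutamate transporter gene Slc1a2 was at 2651, 3037, 2804 and 3007 CPM in controls and 2574, 2635, 2601 and 2293 CPM with hM4Di (-0.19 ± 0.0567, edgeR adjusted p = 0.484). The glycolytic gene Aldoc was at -0.23 ± 0.0645. In contrast Aldh1l1, a folate enzyme used to label astrocytes, was at 52.7 to 64.4 against 67.3 to 70.2 CPM (0.25 ± 0.0579, edgeR adjusted p = 0.371). The potassium channel gene Kcnj10 was at 153 to 202 CPM in controls and 195, 132, 127 and 190 CPM with hM4Di, with the hM4Di libraries in 2 pairs, and at -0.16 ± 0.144.

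Microglial markers were somewhat higher with hM4Di. Of 17 markers 15 were above 0, with a median of 0.24 and 9 at an unadjusted p under 0.05. None was called by edgeR, DESeq2 called 3 (Csf1r, Tmem119 and Aif1), and the summed level was 671 to 763 CPM in controls and 782 to 1005 CPM with hM4Di. Csf1r, the receptor that microglia need to survive, was at 103 to 117 against 124 to 149 CPM (0.29 ± 0.0628). C1qc, a chain of complement C1q, was at 24.1, 19.1, 35.1 and 31.2 against 44.8, 39.7, 58.8 and 49.6 CPM (0.81 ± 0.177), Aif1 at 0.59 ± 0.129 and Tmem119 at 0.38 ± 0.0886, all with an edgeR adjusted p of 0.332 to 0.37. In each of these 4 genes, the smallest p of the list, the groups did not overlap. Such separation upwards held for 5 of the 17 markers and 2.68% of all genes. The markers Fcrls (-0.65 ± 0.432) and P2ry12 (-0.004 ± 0.0722) lay below 0. C1qa, C1qb and C1qc are also members of the antigen presentation and complement list, so the 2 lists are not separate. By library the microglial list stood at 0.10, 0.30, 0.44 and 0.16 with hM4Di and -0.17 to 0.08 in controls. The same replicates 2 and 3 were highest as for interferon genes, and the part of microglia in those genes was not tested. The microglial median was 0.16 without control replicate 4 and 0.11 without hM4Di replicates 2 and 3.

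Leukocytes from blood were near the limit of detection. Of 12 markers 2 passed the filter, Cd4 and Itgal, and T cell, B cell, neutrophil and monocyte genes such as Cd3e, Cd79a, S100a8 and Ccr2 did not. The summed level of these 2 genes was 6.91 to 14.8 CPM in controls and 9.99 to 12.6 CPM with hM4Di. Most of it came from Cd4 (means 11.1 and 10.4 CPM), which microglia also express. The markers below the filter are not in this sum. Itgal, an integrin subunit gene of leukocytes, had means of 0.275 and 0.694 CPM (log2 1.34 ± 0.563, edgeR adjusted p = 0.622) and groups that overlapped. The median deviation of both genes was 0.40, 0.57, 0.95 and 0.05 in hM4Di replicates 1 to 4 and -0.19 to 0.28 in controls, and the part of leukocytes in the interferon values was not tested. Haemoglobin genes Hba-a1, Hbb-bs and Hbb-bt had 0 reads in all 8 libraries. Hba-a2 had reads but stayed below the filter, and the red blood cell gene Alas2 had means of 1.23 and 1.30 CPM. Why the other haemoglobin genes had no reads was not tested. Endothelial markers had 11 of 12 and mural and fibroblast markers 12 of 12 above 0, with medians of 0.13 for either and 0 called. Without control replicate 1 the mural median was 0.09. The transporter gene Slco1a4 of the blood-brain barrier was at 25.7 to 29.9 against 31.5 to 34.1 CPM (0.26 ± 0.0604), the smooth muscle gene Tagln at 0.93 ± 0.279 and Vtn at 0.12 ± 0.0483.

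Cortical markers varied widely between mice. Of 10 cortical excitatory neuron markers, which the striatum should lack and which report how much cortex was dissected along, all 10 were lower with a median of -0.28, and 0 were called. That median was -0.07 without control replicate 4, -0.59 without hM4Di replicate 3 and -0.81 without hM4Di replicates 2 and 3. Their deviations were -0.71, -0.10, 0.19 and -0.80 in hM4Di replicates 1 to 4 and -0.36, -0.09, 0.12 and 0.19 in controls. hM4Di replicates 1 and 4, the 2 mice with low interferon response values, had the lowest cortical values. Tbr1, a transcription factor gene of deep-layer cortical neurons, was at 2.28, 4.76, 6.13 and 2.94 CPM with hM4Di and 4.11 to 8.27 CPM in controls. With the mean of this list as a covariate, an addition made once the values were known, 79 of 15168 genes were called, 78 of them higher. These included 9 of the 22 interferon response genes, 7 of the 16 antigen presentation and complement genes, Gfap and Vim. The covariate was lowest in the same 2 hM4Di mice that were low for the interferon list. It therefore takes up the spread of that list among hM4Di mice, and these calls are no separate support.

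**Figure D4:**
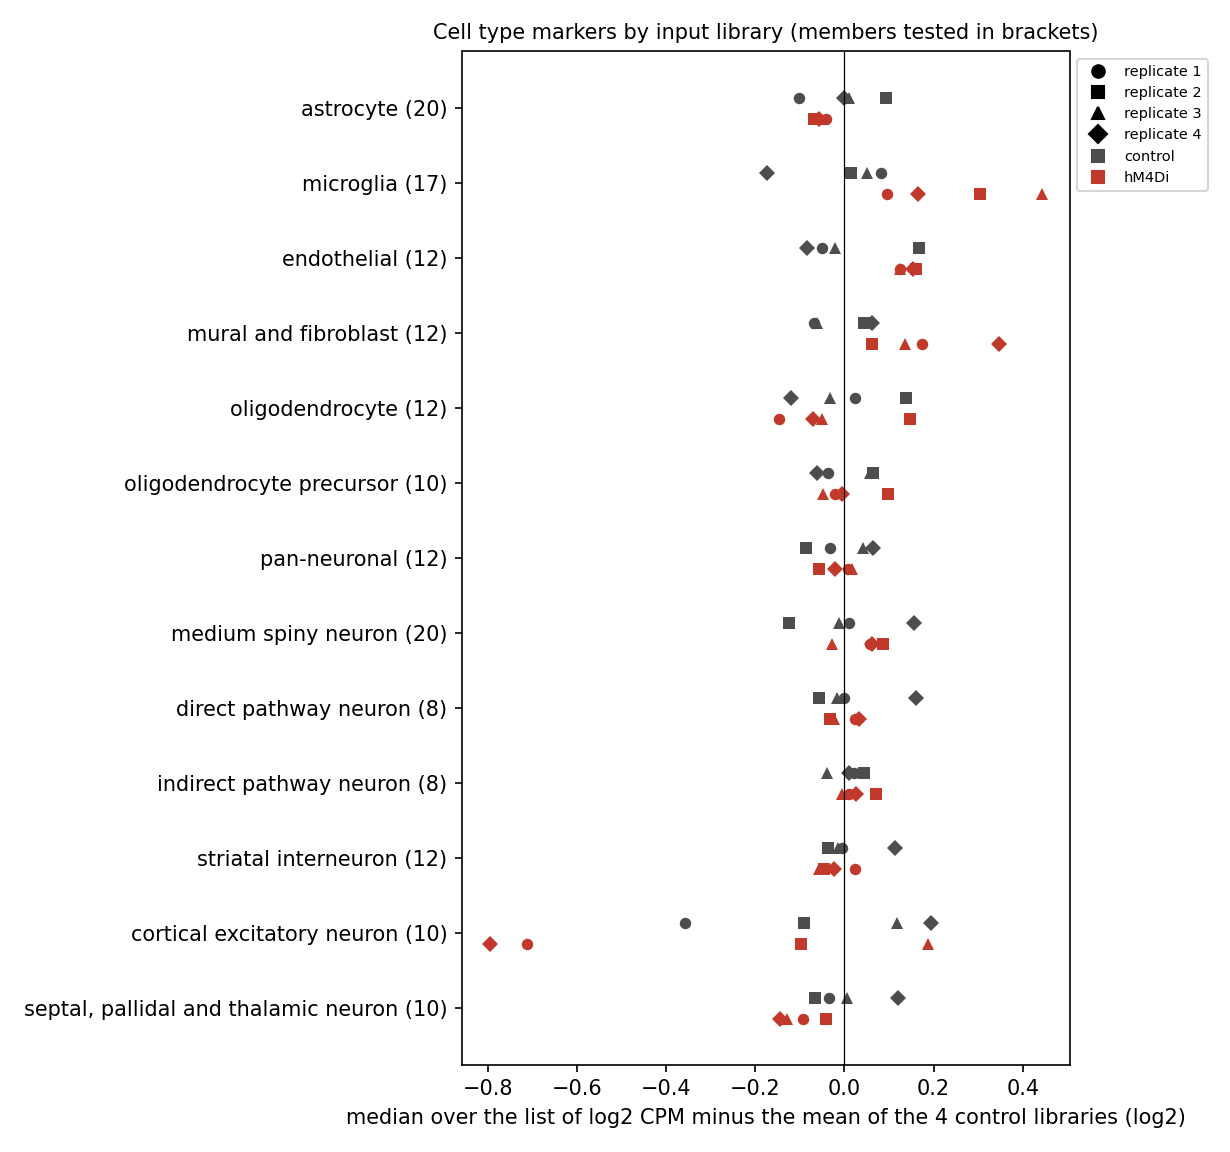
Median deviation of each cell type marker list from the control mean (horizontal, log2) in each input library, with colours and shapes as in the plot of gene groups. Astrocyte markers lie between -0.10 and 0.09 in all 8 libraries, microglial markers reach 0.44 in hM4Di replicate 3, and cortical markers lie at -0.71 and -0.80 in hM4Di replicates 1 and 4.

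Medium spiny neuron genes showed no shared difference in whole striatum. The 20 general markers had a median of 0.03 (17 higher, 0 called), the 8 direct pathway markers 0.02 with Chrm4 as their single call, and the 8 indirect pathway markers 0.03 with 0 called. A list of 24 striatal genes that Huntington's disease models lower had a median of 0.02, with 16 higher and 8 lower and 0 at an unadjusted p under 0.05. Ppp1r1b, which encodes DARPP-32, was at 466, 419, 450 and 597 CPM in controls and 487, 465, 426 and 499 CPM with hM4Di (-0.04 ± 0.0978). The dopamine receptor gene Drd2 was at 45.2 to 50.4 against 49.0 to 51.7 CPM (0.07 ± 0.0455), Drd1 (in the table as Drd1a) at 0.04 ± 0.0847, and the enkephalin gene Penk at 332 to 362 against 342 to 362 CPM (0.02 ± 0.0356). The substance P gene Tac1 was at -0.09 ± 0.0716 and the adenosine receptor gene Adora2a at -0.10 ± 0.0888, the latter with hM4Di replicate 3 at 85.6 CPM and the other 3 at 115 to 119 CPM. The median standard error of genes with an average log2 CPM over 6, such as Penk, put an unadjusted p of 0.05 at a difference of 0.107. For genes from 4 to 6 it was 0.161. Both values use a t distribution on the residual degrees of freedom alone. The edgeR test adds degrees of freedom shared across genes, so it needed somewhat less. Htt itself was at 410 to 436 CPM in controls and 422 to 428 CPM with hM4Di (0.00 ± 0.0304).

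Genes for astrocyte control of synapses were mixed. Of 13 thrombospondin and other synaptogenic genes 6 were higher and 7 lower (median -0.03, 0 called by edgeR and 1, Sparcl1, by DESeq2). The thrombospondin gene Thbs1 was at 3.16, 3.52, 1.82 and 3.55 CPM in controls and 3.64, 3.86, 7.72 and 5.49 CPM with hM4Di (0.79 ± 0.276, edgeR adjusted p = 0.538). Its groups did not overlap, but hM4Di replicates 1 and 2 lay close to the controls. Tgfb2, a growth factor that astrocytes secrete, was at 12.4 to 15.5 against 9.82 to 12.3 CPM (-0.29 ± 0.0955).

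The other lists had medians within 0.15 of 0 and held no gene called by edgeR. DESeq2 called 1 gene in them, the ciliary transcription factor gene Foxj1 of the ependymal list (log2 0.446 ± 0.0891, groups not overlapping). Medians were -0.03 for oligodendrocytes, 0.01 for their precursors, -0.04 for pan-neuronal genes, -0.01 for striatal interneurons, -0.10 for septal, pallidal and thalamic neurons and 0.13 for the 9 tested ependymal and choroid plexus genes (0.06 without control replicate 3). Neuronal function lists were at 0.00 for glutamate receptors and postsynaptic density, 0.00 for potassium channels and -0.04 for GABA signalling. Housekeeping and stress lists were at 0.03 for the respiratory chain and for heat shock, -0.03 for the unfolded protein and integrated stress response, -0.07 for glucocorticoid response, -0.02 for circadian clock and -0.04 for nuclear-retained RNA. Genes raised in Huntington's disease models had a median of 0.02 over the 9 tested of 14, microglial activation genes 0.10, and the 4 Y-linked genes tested -0.13. The single red blood cell marker that passed the filter was at 0.10.

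The same mice gave IP libraries, in which hM4Di made a much larger difference. There 1374 genes were called higher (9.06%) and 853 lower (5.63%) by edgeR, against 0.0198% in input. Chrm4 was at 3.98 ± 0.205, Gem at 3.61 ± 0.168 and Cyr61 at 2.77 ± 0.224 (log2 ± SE) in IP, so each was called in both fractions. The difference between the input value and the IP value did not pass for any of the 3 (edgeR adjusted p = 0.0838, 0.139 and 0.451). Over all genes, that test called 492 of 15880 (3.1%), 190 with a more positive value in input and 302 with a more positive value in IP. With the mouse as a block 2761 were called, the 492 among them. The count was 91 without control replicate 1, 208 without control replicate 3, and 323, 202, 280 and 128 without hM4Di replicates 1, 2, 3 and 4.

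Several genes that were called in IP differed by much less in whole striatum. Cnn2, calponin 2, was at 5.23, 5.02, 4.10 and 7.63 CPM in control input and 6.07, 6.61, 7.82 and 7.90 CPM in hM4Di input (0.37 ± 0.18), but at 0.99 to 2.20 CPM in control IP and 10.9 to 14.97 CPM in hM4Di IP (2.93 ± 0.217). The chemerin receptor gene Cmklr1 was at 0.63 ± 0.17 in input, with groups that did not overlap, and 5.20 ± 0.546 in IP, and the splicing regulator gene Ptbp1 at 0.26 ± 0.0688 and 1.51 ± 0.135. Gabbr1, which encodes a subunit of the GABA-B receptor, was at -0.07 ± 0.0301 in input and fell by 0.54 on the log2 scale in IP. Each of these 4 differences between fractions had an edgeR adjusted p of 0.00287.

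Oligodendrocyte genes had a median of -0.03 in input, where 2 of 12 were higher, and of 0.83 in IP, where 12 of 12 were called. Mog, a myelin surface protein gene, was at -0.11 ± 0.0756 in input and 0.90 ± 0.119 in IP, and the difference passed (edgeR adjusted p = 0.0054), as did that of Sox10 (-0.28 against 0.47, edgeR adjusted p = 0.0292). Medium spiny neuron genes had a median of 0.03 in input and -0.46 in IP, with 10 of 20 called in IP. Penk was at 0.02 in input and -0.51 in IP (edgeR adjusted p of the difference 0.0287), while the differences of Tac1 and Drd1 did not pass (0.139 and 0.248). Klhl1 was the single gene among the 15 higher and 15 lower with the smallest p in input whose difference from IP passed (0.42 against -0.03, edgeR adjusted p = 0.0306). For interferon response genes the medians were 1.63 in input and 2.44 in IP, with 16 of 22 called in IP, and for antigen presentation and complement genes 1.30 and 1.92, with 11 of 16 called in IP.

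**Figure D5:**
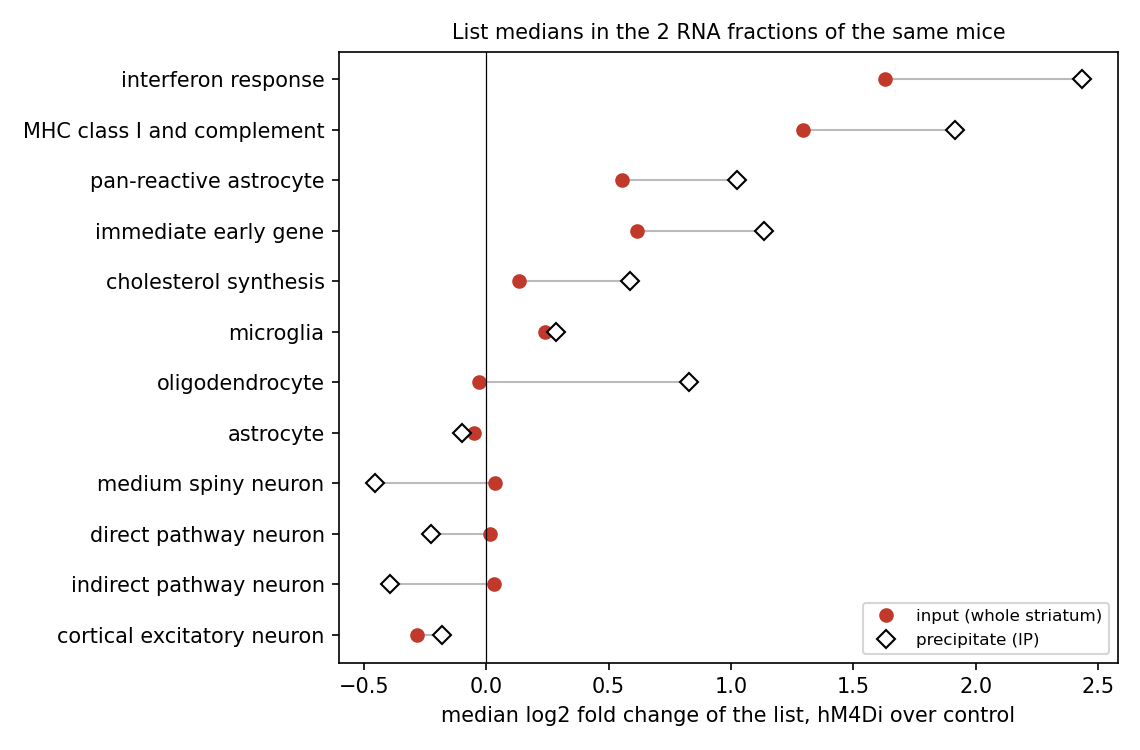
Median log2 fold change of 12 lists, hM4Di over control (horizontal), in input (red circles) and in IP (open diamonds) of the same mice. Immune and reactive lists lie above 0 in both fractions, while oligodendrocyte genes (-0.03 and 0.83) and medium spiny neuron genes (0.03 and -0.46) lie apart; the difference between medians was not tested.

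Whether the input difference was particular to hM4Di was tested against the input difference of the other 2 experiments of the series, which share no library with it: the toxin MPTP against vehicle, and SAPAP3 knockout against wild type, both in mice whose labels name no R6/2 transgene. The titles place these experiments under other project numbers, so the experiment and its batch cannot be told apart in this test. Against MPTP, 5 of 15880 genes were called (0.0315%): Chrm4, Gem, Cyr61, Slco1a4 and Sphkap. At an unadjusted p under 0.05 stood 8.07% of genes. Chrm4, Gem and Cyr61 were at 0.02, 0.10 and 0.14 in the MPTP comparison (edgeR adjusted p of the difference 5.72e-09, 7.5e-05 and 0.00102). Slco1a4 was at 0.26 with hM4Di and -0.29 with MPTP, and Sphkap at -0.42 and 0.34, so that both differences rest on values of opposite sign that did not pass in either experiment (edgeR adjusted p of the difference 0.0171 and 0.0418). The count was 3 without control replicate 3, control replicate 4 or hM4Di replicate 4.

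Against SAPAP3 knockout, 4 of 15932 genes were called (0.0251%): Chrm4, Gem, Cyr61 and Dlgap3. At an unadjusted p under 0.05 stood 9.63% of genes. Dlgap3 is the gene deleted in the SAPAP3 experiment, where it was at -1.19 ± 0.101 and 1 gene (0.00641%) was called in input, against 0.05 ± 0.0837 with hM4Di. The other 3 were at -0.21, -0.05 and -0.19 in the knockout comparison. No interferon, antigen presentation or reactive astrocyte gene was among the calls of either test. Interferon response genes had a median of 0.42 with MPTP, with 22 of 22 higher, and of -0.28 in the knockout, with 0 of 22 higher.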

How the data were processed

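RNA was sequenced from striatal lysate (input) and from HA precipitates (IP) of RiboTag mice, with stranded libraries depleted of ribosomal RNA, per the labels' protocols. The authors deposited raw read counts per gene and FPKM for all 48 libraries. The tools named are STAR and HTSeq and the genome build is mm10, per the submitters' processing notes. Their versions and the gene annotation are not given in the sources used here. The deposited FPKM equalled the deposited counts divided by a gene length and the library total, with lengths implied for 21012 genes that agreed between libraries to a ratio of 1.000001, so both units carry the same information.

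The 8 input libraries of the R6/2 experiment were compared with edgeR 4.0.16 (R 4.3.3): filterByExpr with a minimum count of 10, TMM scaling, the quasi-likelihood test and Benjamini-Hochberg adjustment at 0.05. This left 15168 genes, which held at least 99.942% of the reads of each library. A standard error is the log2 fold change divided by the root of the F statistic. Total counts of 21901847 to 28012028 reads gave a median standard error of 0.333 for genes under 0 log2 CPM and 0.0436 for those over 6. The difference between fractions, and between experiments, was tested as an interaction in one edgeR fit over the libraries concerned. Titles give input and IP of one mouse the same name, and every input library correlated best with the IP library of its own mouse (8 of 8, r from 0.515 to 0.749), so that the blocked count stands beside that test. Alternatives used other scalings, filters and sets of libraries, limma 3.58.1, DESeq2 1.42.0, and leaving out each replicate.

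Genes named are Chrm4, Rpl22, Htt and 8 markers, the 15 smallest p in each direction, up to 4 members of each list and the 6 smallest p of each interaction, leaving out uninformative symbols. Some eligible genes are not reported here. The comparison, the 42 gene lists and the rule were chosen with earlier results of these data known. The interferon element, the covariate fit and the fit without hM4Di replicates 2 and 3 were chosen after the values were seen. Scripts were tested on simulated data. Promoters are RefSeq sequences of GRCm38.p6 and gene positions are from GENCODE, matched by symbol.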

Additional observations from a re-analysis of the deposited data

Results flagged for a closer look

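In groups of 4, a library was singled out by Dixon's criterion at the 95% level, from its gap to the nearest of the others over the whole range. Of 216 groups tested, 10 met this, where chance gives about 11, so the number itself is not unusual. Of the 10, 9 were in hM4Di groups and 5 of these in hM4Di replicate 3. In that replicate Maff stood at 12.3 CPM (others 3.03 to 3.94), Bst2 at 25.8 CPM (3.15 to 4.03), Zfp36l2 at 22.97 CPM (27.1 to 27.2) and Adora2a at 85.6 CPM (115 to 119). The cholesterol synthesis list was at 0.369 there on the log2 scale (0.07 to 0.11). In hM4Di replicate 2, Fos stood at 70.0 CPM (9.74 to 16.4), Drd1 at 262 CPM (223 to 228) and the immediate early gene list at 1.51 (-0.04 to 0.17). Chrm2 was at 7.39 CPM in hM4Di replicate 4 (8.27 to 8.42) and Ptbp1 at 32.7 CPM in control replicate 4 (28.5 to 29.0).

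The hM4Di difference in input departed from that in IP for 492 genes by edgeR's interaction test. The input value minus the IP value, on the log2 scale, was -4.55 for Cmklr1, -2.55 for Cnn2, -1.24 for Ptbp1, -1.002 for Mog and -0.74 for Sox10. It was 0.53 for Penk, 0.48 for Gabbr1 and 0.46 for Klhl1.

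Against the input difference of MPTP 5 genes were called, and against that of SAPAP3 knockout 4. The hM4Di value exceeded the MPTP value by 3.12 for Chrm4, 2.64 for Gem, 2.07 for Cyr61 and 0.55 for Slco1a4, and for Sphkap the difference was -0.76. It exceeded the knockout value by 3.36 for Chrm4, 2.80 for Gem, 2.42 for Cyr61 and 1.26 for Dlgap3.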

How the results depend on the processing

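The count of 3 called genes was 53 with DESeq2, 5 with no filter beyond 1 read, 9 in a fit over all 24 input libraries, 5 at an adjusted p of 0.1, 5 without hM4Di replicates 2 and 3 together and 79 with the cortical covariate. Leaving out 1 replicate gave 3 to 4. Chrm4, Gem and Cyr61 were among the calls of each alternative run except limma-voom, which made 2 calls and gave Cyr61 an adjusted p of 0.0787. Replicate numbers do not pair control with hM4Di mice (correlations of same-numbered deviations -0.0935 to 0.0377), and the fit with the number as a replicate block called 6. The difference between input and IP was called for 1154 genes by DESeq2, 2761 with the mouse as a replicate block and 91 to 433 without 1 replicate. Against MPTP, DESeq2 called 35 and leaving out 1 replicate gave 3 to 7. Against SAPAP3 knockout these were 27 and 4 to 6. Of 2134 log2 fold changes of 89 named genes under 24 alternatives, 2054 kept direction and call, 64 gained a call, 1 lost it and 15 changed sign, in Htt, Drd1, Penk, Ppp1r1b and Kcnj10, of which Kcnj10 was at -0.16 and the others within 0.05 of 0. Htt was at -0.000702 with no filter, -0.0013 over 24 inputs and -0.0063 without hM4Di replicates 2 and 3, where Kcnj10 was at 0.0934, Drd1 (Drd1a) at -0.0097, Penk at -0.0042 and Ppp1r1b at 0.0272. Without 1 replicate Htt ranged from -0.0114 to 0.0184, Drd1 from -0.0156 to 0.127, Penk from -0.0016 to 0.0404 and Ppp1r1b from -0.106 to 0.0755. The cause of these shifts was not tested. Depth limits genes under 0 log2 CPM, where the median standard error put an unadjusted p of 0.05 at a difference of 0.815. That value uses the residual degrees of freedom alone, and the edgeR test needed somewhat less.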
